A study of Mus musculus with 3 samples.

Results

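The 8 genes of the basal transcription machinery described here were followed through the testis transcript table: the ubiquitous Tbp, Gtf2a1, Taf4a and Taf7 and their germline paralogs Tbpl1, Gtf2a1l, Taf4b and Taf7l. The members were the models whose gene symbol was one of these names. All 8 genes were found, with 16 of the 50081 models, 8 models in each class of 4 genes. The series held 3 libraries of wild-type C57BL/6J mouse testes, 1 per group: CAGE, which reads capped 5′ ends of RNA, at 10.5 days post partum and in adults, and PAS-Seq, which reads the 3′ ends of polyadenylated RNA, in adults. The labels name testes and no purified cell type, so germ cells and somatic cells cannot be told apart. The only values analysed here were the positions and exons of the models, given once for the whole series in the mm9 build. There was no read count or level per library, the depth behind a model is unknown, and the groups could not be compared with each other.

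RNA polymerase II starts at a promoter with the help of general transcription factors. TFIID, built from the TATA-binding protein TBP and its associated factors, the TAFs, recognises the promoter, and TFIIA stabilises TBP on DNA. Male germ cells also use relatives of these subunits: TBPL1, needed for spermatids to mature; ALF, the TFIIA large subunit encoded by Gtf2a1l; TAF4B, needed to maintain spermatogonia; and the X-linked TAF7L. Tbpl1 is not restricted to the germline, and it is grouped with the germline genes here because it is the member of its pair known for its role in the testis.

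Each model had a code. Of the 16 member models, 9 were RefSeq-derived and 7 were CUFF models, whose identifiers have the form given by the Cufflinks assembler, and all 16 were coded NM. No source used here says what the codes mean. All 8 members thus had a code other than XX, against 62.3% of the 22426 genes with a RefSeq-derived model. The code was also other than XX for 5 of 5 testis markers (Ddx4, Sycp3, Prm1, Sox9 and Star) and for 0 of 8 markers of other tissues, such as Alb of liver and Myh6 of heart. The code did not separate the ubiquitous from the germline class, since it held for 4 of 4 genes in each. It was not read as a measure of expression.

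CUFF models, which carry structure beyond RefSeq, were present for 5 of 8 members, 2 of 4 ubiquitous and 3 of 4 germline, against 28.5% of all RefSeq genes. More than 1 start, counting starts within 50 nt as 1, was found for 4 of 8 members, against 26.7% of RefSeq genes: Tbp, Gtf2a1, Taf4a and Tbpl1. More than 1 end was found for 5 of 8, against 23.0%: Tbp, Taf4a, Tbpl1, Gtf2a1l and Taf4b. The ubiquitous class had 7 starts and 6 ends over its 4 genes, and the germline class had 5 starts and 7 ends. Several starts were found for 3 of 4 ubiquitous genes and 1 of 4 germline genes, and several ends for 2 of 4 and 3 of 4. The class difference in starts depended on the tolerance. With positions required to be identical, Gtf2a1l and Taf4b were added, 6 members had several starts, and the classes no longer differed in this count. These are counts over 4 genes a class and were not tested. They rested on the CUFF models: with RefSeq-derived models alone, 1 member (Gtf2a1) had several starts and 0 had several ends. The shares of 26.7% and 23.0% include CUFF models. No share for RefSeq-derived models alone is given here, so these lower counts have no like background. The shares also use the 50-nt tolerance, so the count of 6 with identical positions has no like background either.

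**Figure D1:**
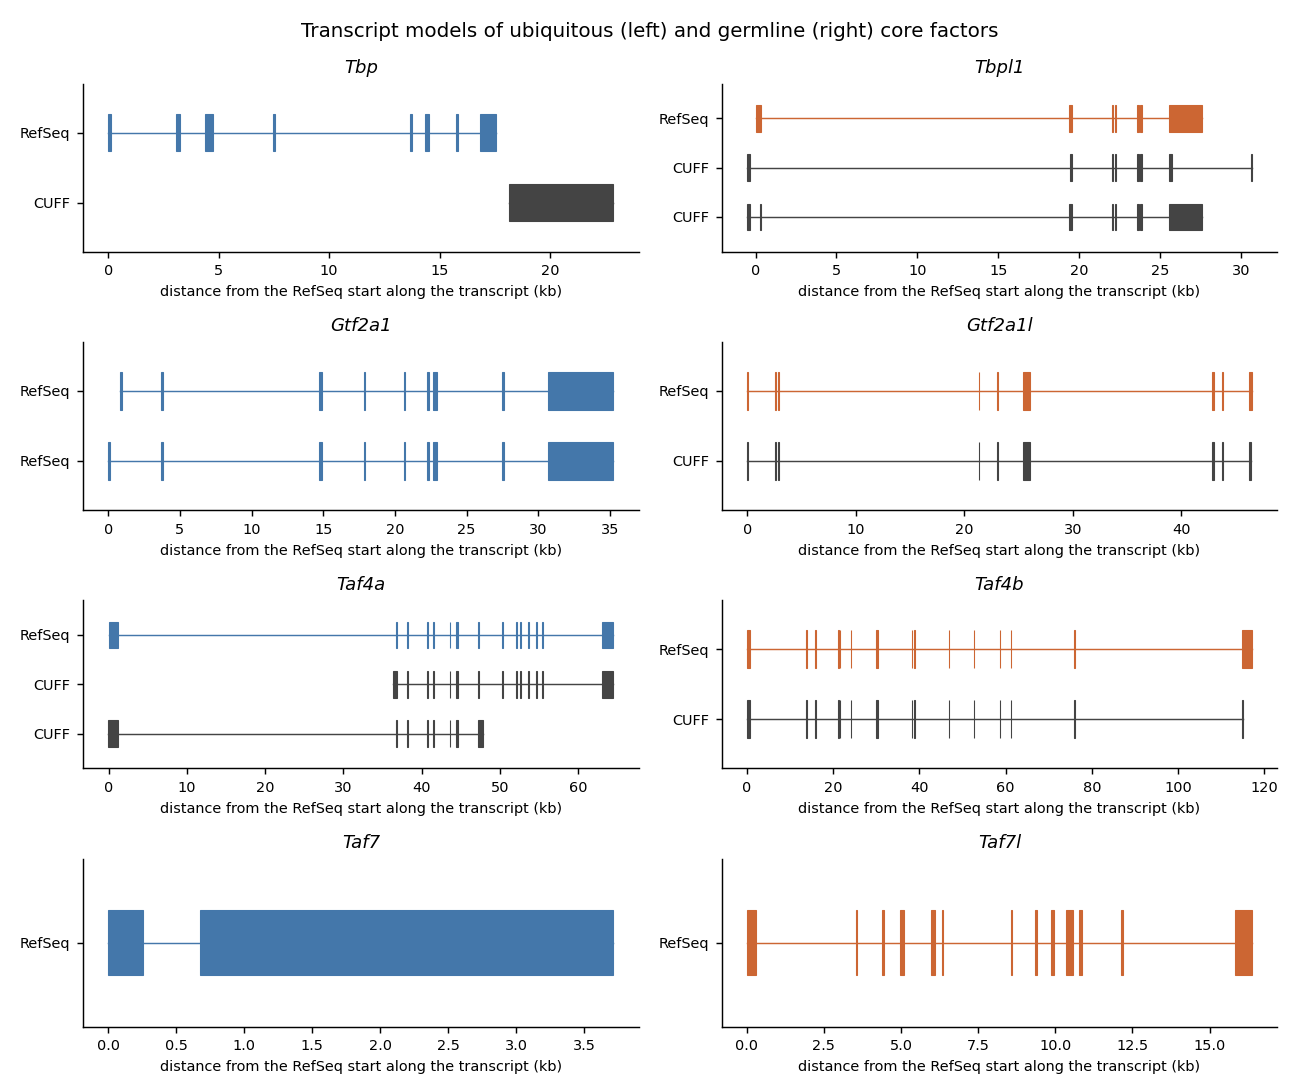
Exons (boxes) and introns (lines) of the 16 models, as distance in kb from the RefSeq start of each gene (for Gtf2a1 the upstream one) in the direction of transcription, on a separate scale for each gene; coloured models are RefSeq-derived and dark ones CUFF. The CUFF model of Tbp lies wholly beyond the RefSeq end, those of Tbpl1 start upstream of the RefSeq start, and Taf7 and Taf7l have 1 model each.

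Tbp encodes the TATA-binding protein. Its RefSeq-derived model (chromosome 17, 15636852 to 15654391, plus strand) had 8 exons and a spliced length of 1842 nt. Its other model was a single exon of 4723 nt (15654992 to 15659714) that began 601 bp past the RefSeq end and shared no exon with it. The extra start and the extra end of Tbp both came from this downstream model. It overlapped exons of Pdcd2, which runs on the other strand (15658539 to 15664265), by 333 nt. With multi-exon models alone, Tbp had 1 start and 1 end, and the counts of members with several starts and several ends fell to 3 and 4. No share of RefSeq genes for multi-exon models alone is given here. Upstream, the nearest start on the other strand belonged to the proteasome subunit gene Psmb1, 1585 bp away. An unnamed single-exon model of 509 nt on the strand of Tbp lay between them, starting 84 bp from the Psmb1 start and ending 993 bp before Tbp.

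Tbpl1, which encodes the TBP-like factor, was the only germline member with more than 1 start. Its RefSeq-derived model (chromosome 10, 22423683 to 22451253, minus strand) had 7 exons and 2875 nt. Both CUFF models began 539 bp further upstream with a first exon of 204 nt (22451589 to 22451792) that is absent from the RefSeq-derived model. In 1 of them this exon was joined to a 74-nt exon, which is the 3′ part of the 332-nt RefSeq exon 1, and all 6 RefSeq introns were kept. That model had 2822 nt and ended 1 nt from the RefSeq end. The other model skipped RefSeq exon 1, entered exon 2 at a site 105 nt further in, and kept 5 of 6 introns. It cut the last exon of 2019 nt to 203 nt and spliced it to a 77-nt exon 3102 bp beyond the RefSeq end, giving 903 nt in 8 exons. Tbpl1 therefore had 2 starts and 2 ends, of which the downstream end was reached by splicing. The RefSeq end overlapped the 3′ end of the glucose transporter gene Slc2a12 on the other strand by 4 nt. The 77-nt exon lay inside the span of Slc2a12 and overlapped its exons by 0 nt.

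The TFIIA pair differed most at the 3′ end. Gtf2a1, which encodes the precursor of the large TFIIA subunits, had 2 RefSeq-derived models and no CUFF model (chromosome 12, 92793702 to 92828927, minus strand). They began 838 bp apart, with first exons of 115 and 102 nt, and shared 1 end and a last exon of 4590 nt. Each had 9 exons, with 5704 and 5691 nt in all. Gtf2a1l (chromosome 17, 89068000 to 89114490, plus strand) also had 9 exons, but a last exon of 269 nt and 1619 nt in all. The last exon of Gtf2a1 was thus 17.1 times as long, and its transcript 3.52 times as long, as those of Gtf2a1l. Among RefSeq genes, 96.6% had a shorter last exon than Gtf2a1 and 13.4% a shorter one than Gtf2a1l. The CUFF model of Gtf2a1l kept all 8 introns, began 27 bp upstream and ended 93 bp short, which left a last exon of 176 nt. Its start counted as the same as the RefSeq one and its end as a separate one, and with a tolerance of 100 nt both were merged.

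Taf4a, now named Taf4, encodes a scaffold subunit of TFIID. Its RefSeq-derived model (chromosome 2, 179646851 to 179711351, minus strand) had 15 exons and 4422 nt. A CUFF model began 36382 bp inside the gene, within intron 1 of 35458 bp and 310 bp upstream of exon 2, and then followed the remaining 13 introns to the RefSeq end. It had 14 exons and 3498 nt and lacked the 1234-nt exon 1. The other CUFF model began 47 bp upstream of the RefSeq start, kept 7 introns, and ended 16657 bp early in a lengthened exon 8 of 622 nt. Taf4a was thus the only member with both an internal start and an end within an intron.

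Taf4b had the longest span of the members, 117115 bp (chromosome 18, 14941754 to 15058868, plus strand), with 15 exons and 5149 nt. Its CUFF model began 31 bp upstream, used a site that shortened exon 8 from 133 to 118 nt, and kept 13 of 14 introns. It ended 2144 bp early, with a last exon of 252 nt against 2396 nt, and had 3021 nt in all. An unnamed CUFF model of 2 exons, coded XX, ran on the other strand across the 3′ end of Taf4b (15050943 to 15057892). It overlapped exons of the RefSeq-derived model by 79 nt and exons of the early-ending model by 0 nt. A further unnamed single-exon model of 1091 nt began 646 bp past the RefSeq end on the strand of Taf4b. Of the 7 CUFF models, 5 began upstream of the RefSeq start, by 27 to 539 bp, 3 ended short of the RefSeq end, by 93 to 16657 bp, and 2 ended more than 50 nt beyond it.

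The last pair showed the widest gap in exon number. Taf7, which encodes a TAF that binds TAF1, had 1 model of 2 exons and 3302 nt (chromosome 18, 37800145 to 37803858, minus strand), of which 3042 nt lay in the last exon. Taf7l had 1 model of 13 exons and 1935 nt (X chromosome, 130994655 to 131011029, minus strand). Its last exon had 550 nt, so that of Taf7 was 5.53 times as long, while its span of 16375 bp was 4.41 times that of Taf7. Taf7 lay within an intron of a protocadherin model on the other strand and overlapped its exons by 0 nt. Neither gene had a CUFF model.

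Over the RefSeq-derived models, the germline class had a median of 11 exons and the ubiquitous class 8.5, against a median of 6 over all RefSeq genes (quartiles 3 and 12). This difference came from 1 pair, Taf7 with 2 exons and Taf7l with 13. Exon number was equal in the TFIIA pair (9) and the TAF4 pair (15), and Tbpl1 had 7 against 8 in Tbp. The median spliced length was 2405 nt in the germline class and 3862 nt in the ubiquitous class, against 2248 nt. The median last exon was 1284.5 nt and 2251.5 nt, against 960 nt. For the last exon, too, the direction differed between pairs. The germline last exon was shorter for Gtf2a1l and Taf7l but longer for Tbpl1 (2.79 times that of Tbp) and Taf4b (1.64 times that of Taf4a). Spliced length followed the same split, with 1.56 times for Tbpl1 and 1.16 times for Taf4b. Genomic span was larger for the germline gene in all 4 pairs, from 1.35 times for Gtf2a1l to 4.41 times for Taf7l. For Gtf2a1 this used the model with the downstream start, of 34388 bp, and not the one of 35226 bp. When the longest model of any kind stood for each gene, the single-exon model stood for Tbp, and the median difference in exon number became 5.5 instead of 2.5. No difference of 4 genes against 4 was tested.

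**Figure D2:**
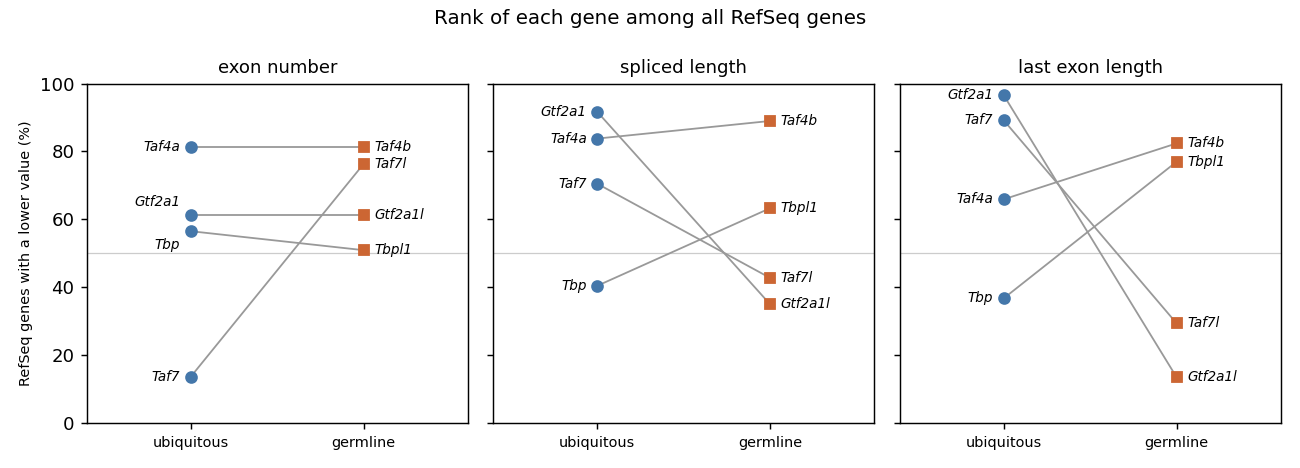
Share of the 22426 RefSeq genes with a lower exon number, spliced length or last exon length than each member, in percent, from the longest RefSeq-derived model of each gene; lines join the ubiquitous (circle) to the germline (square) gene of a pair, and the grey line marks 50%. Last exon length falls steeply from Gtf2a1 (96.6%) to Gtf2a1l (13.4%) and from Taf7 (89.2%) to Taf7l (29.3%), and rises in the other 2 pairs.

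Internal exons of equal length at the same place were found in 3 of 4 pairs, and most of them in Taf4a and Taf4b. Taf4a and Taf4b had 15 exons each, and 6 of their 13 internal exons had the same length at the same place: exons 5 (123 nt), 6 (90 nt), 10 (170 nt), 11 (131 nt), 12 (126 nt) and 13 (57 nt). The other 7 differed by 3 to 354 nt, and every one of these differences was a multiple of 3, the length of a codon. The largest was in exon 7, with 246 nt in Taf4a and 600 nt in Taf4b. The shortened exon 8 of the Taf4b CUFF model differed from the RefSeq exon by 15 nt, also a multiple of 3. Gtf2a1 and Gtf2a1l had 9 exons each, exons 2 (102 nt) and 8 (90 nt) were equal, and the other 5 internal exons again differed only by multiples of 3. The largest of these differences was 432 nt, in exon 6, which had 134 nt in Gtf2a1 and 566 nt in Gtf2a1l. In these 2 pairs, 20 of 20 internal exons differed by a multiple of 3 or not at all, and 8 were equal. Each of these equal lengths was held by 0.367% to 0.929% of the internal exons of RefSeq genes, whatever their place. Over all pairs of the 163024 internal exons of RefSeq genes, 34% differed by a multiple of 3 or not at all. Those pairs join exons of any genes at any place, so 34% is not a share for place-matched exons of paralogs. The difference from it was not tested, and the 2 pairs of genes were singled out after their lengths were seen.

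Counted back from the last exon, Tbp and Tbpl1 did not show this. At the same place, 1 of 5 internal exons was equal, the 95-nt exon before the last one. The other 4 differed by 5 to 196 nt, none by a multiple of 3. However, Tbpl1 exons 4 (64 nt) and 5 (104 nt) together were as long as Tbp exon 6 (168 nt). With both set against that exon, Tbp exons 5 (92 nt) and 4 (88 nt) faced Tbpl1 exons 3 (83 nt) and 2 (178 nt). Both differences were then multiples of 3, so the count by order does not show that this pair lacks the pattern. Taf7 has no internal exon, so it could not be set against Taf7l. Apart from the regrouping of Tbp and Tbpl1, exons were set side by side by their order from the 3′ end, and no sequence was aligned. The comparison was chosen after the exon lengths were seen, and it describes gene structure in RefSeq rather than the testis libraries.

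**Figure D3:**
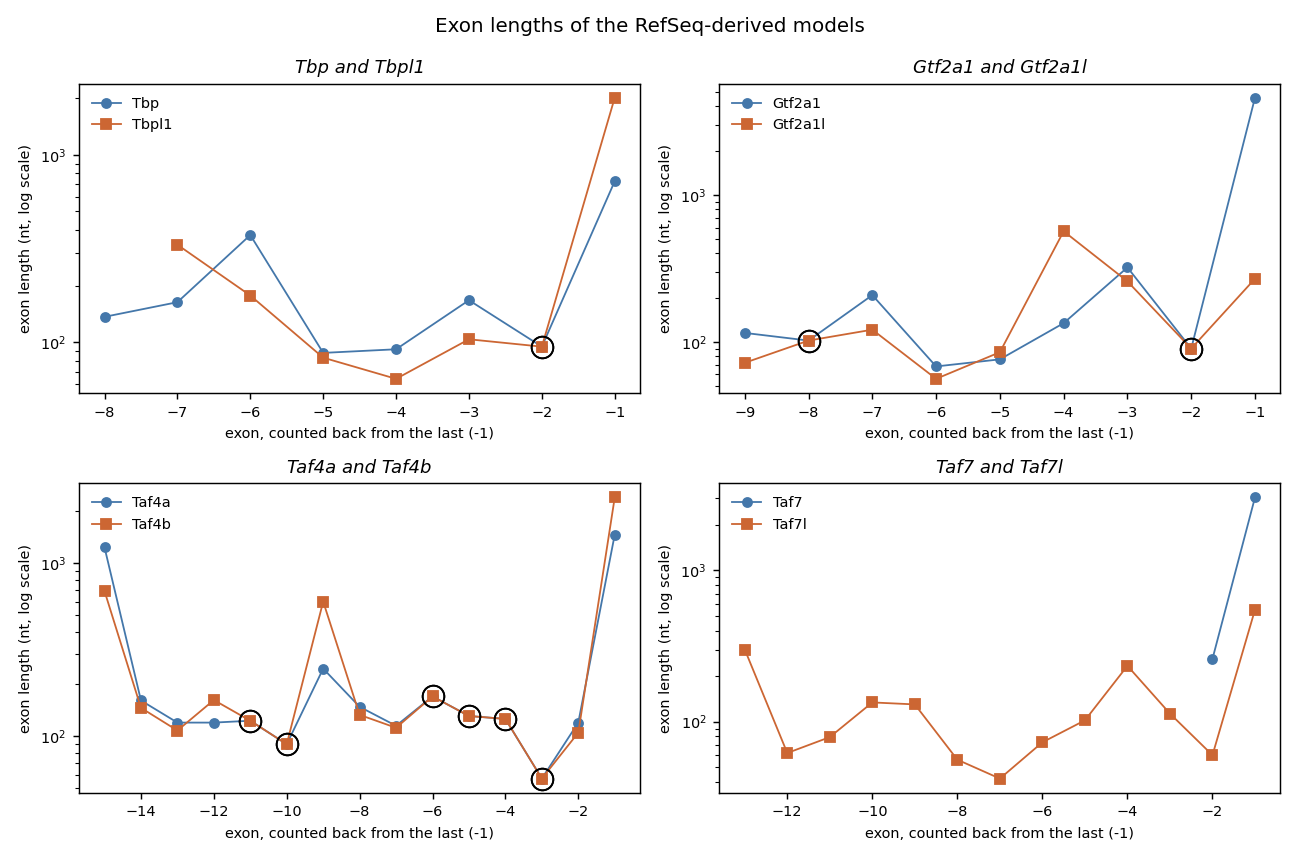
Length of each exon in nt (log scale) against its place counted back from the last exon, for the RefSeq-derived model of each ubiquitous gene (circles) and its germline paralog (squares); rings mark internal exons of equal length. Taf4a and Taf4b run almost together along 13 internal exons with 6 rings, whereas Tbp and Tbpl1 share 1 ring and Taf7 has 2 exons against 13.

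The surroundings of the same 2 pairs were alike. Upstream of Gtf2a1 lay Ston2, 41.8 kb away on the same strand, and downstream lay Tshr, the thyrotropin receptor gene, 4.41 kb away on the other strand. Upstream of Gtf2a1l lay Ston1, 19.8 kb away on the same strand, and downstream lay Lhcgr, the receptor gene for luteinizing hormone, 22.2 kb away on the other strand. For Ston2, Tshr, Ston1 and Lhcgr the nearest model, to which the distance runs, was a CUFF model. Their nearest RefSeq-derived models lay 42522, 14753, 22909 and 26399 bp away. Ston1 and Ston2 encode the stonins, and Tshr and Lhcgr encode glycoprotein hormone receptors. Upstream of Taf4a lay the proteasome gene Psma7, 59.7 kb away on the same strand, and then Ss18l1 on the other strand. Upstream of Taf4b lay the paralogous genes in the same order and orientation: Psma8, which encodes the proteasome subunit of spermatocytes, 20.9 kb away, and then Ss18. The neighbours of Tbp and Tbpl1 and of Taf7 and Taf7l showed no such match within 250 kb by name. Although Ston1 and Gtf2a1l follow each other on 1 strand, 0 models of another symbol shared an intron with any member, so none joined them. The CUFF model of Ston1, coded XX, ran 3062 bp past the RefSeq end of Ston1 and stopped 19847 bp before Gtf2a1l. These neighbours were singled out after they were seen.

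**Figure D4:**
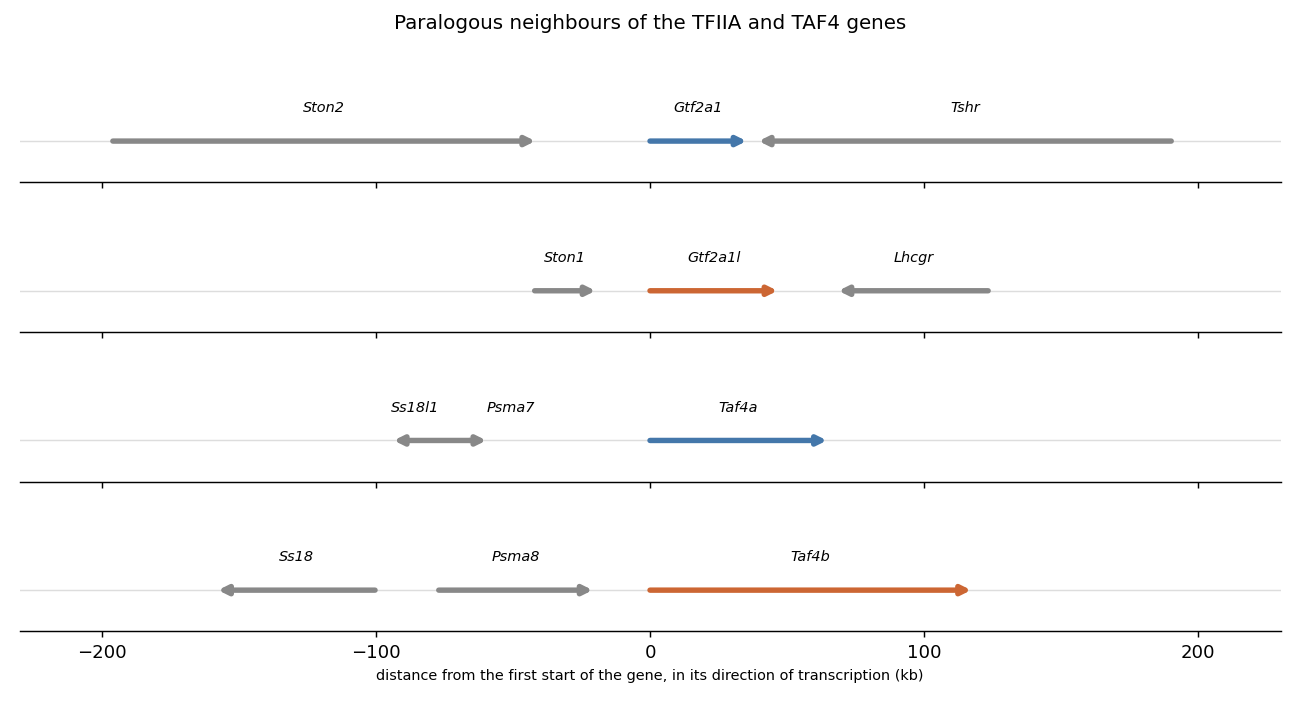
Gtf2a1, Gtf2a1l, Taf4a and Taf4b (coloured) with their paralogous neighbours (grey), as distance in kb from the furthest upstream start of each gene, all turned so that the gene runs to the right; arrows give the direction of transcription, and other genes between them are left out. The stonin and receptor genes flank both TFIIA genes, and the proteasome and Ss18-family genes lie upstream of both TAF4 genes, in the same orientation.

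A start on the other strand within 500 bp upstream was found for 1 of 8 members, Taf4a, against 11.3% of RefSeq genes. It belonged to the noncoding gene 4921531C22Rik, which had a RefSeq-derived and a CUFF model, both coded NR (chromosome 2, from 179711558 and 179711541). The starts of the RefSeq-derived models lay 207 bp apart, and those of the CUFF models 143 bp. Within 2000 bp Tbp was added, which faced Psmb1. No germline member had such a neighbour within that distance. The share of RefSeq genes with a facing start within 2000 bp is not given here, and the class difference was not tested.

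Promoter sequences from RefSeq (GRCm38.p6) were found for 6 of 8 members, all but Taf4b and Taf7. Each window ran from 250 bases before the RefSeq start to 50 after it. For Tbp, Tbpl1, Gtf2a1, Taf4a and Taf7l the gene spanned the same number of bases from this start as in the mm9 table, so the window sits at the start of the model. For Gtf2a1l the spans were 46498 and 46491 bp, and the window need not sit exactly there. The bases just before each start are shown to set the promoters of the paralogs beside each other, 150 bases each and 250 for Taf4a, whose window takes in the start of 4921531C22Rik, also 207 bp away in this build. They read 5′ to 3′ along the gene, in GRCm38.p6 coordinates, and capitals mark GGGCGG (the GC box), CCGGAAG (an ETS core) and TATAAA (the TATA box that TBP binds), on either strand:
Tbp, chr17:15499738-15499887 (plus strand): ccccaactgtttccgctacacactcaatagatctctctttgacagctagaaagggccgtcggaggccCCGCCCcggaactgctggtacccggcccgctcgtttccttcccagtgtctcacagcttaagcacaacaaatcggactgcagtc
Tbpl1, chr10:22731448-22731597 (minus strand): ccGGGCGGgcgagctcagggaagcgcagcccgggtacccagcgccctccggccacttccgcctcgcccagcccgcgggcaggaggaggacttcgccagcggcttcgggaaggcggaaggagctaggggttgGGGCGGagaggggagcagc
Gtf2a1, upstream start, chr12:91590488-91590637 (minus strand): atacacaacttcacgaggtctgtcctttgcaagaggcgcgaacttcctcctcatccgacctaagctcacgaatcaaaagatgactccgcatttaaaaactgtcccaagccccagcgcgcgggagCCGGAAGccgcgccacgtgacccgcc
Gtf2a1l, chr17:88668510-88668659 (plus strand): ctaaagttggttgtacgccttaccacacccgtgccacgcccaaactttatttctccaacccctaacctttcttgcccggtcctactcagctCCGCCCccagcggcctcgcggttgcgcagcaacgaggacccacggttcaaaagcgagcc
Taf4a, chr2:179976647-179976896 (minus strand): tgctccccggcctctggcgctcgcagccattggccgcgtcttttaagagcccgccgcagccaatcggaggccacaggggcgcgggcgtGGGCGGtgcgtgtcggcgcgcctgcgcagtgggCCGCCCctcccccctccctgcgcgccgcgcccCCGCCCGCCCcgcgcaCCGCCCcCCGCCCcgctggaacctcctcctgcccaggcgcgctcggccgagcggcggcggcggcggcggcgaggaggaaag
Taf7l, chrX:134476491-134476640 (minus strand): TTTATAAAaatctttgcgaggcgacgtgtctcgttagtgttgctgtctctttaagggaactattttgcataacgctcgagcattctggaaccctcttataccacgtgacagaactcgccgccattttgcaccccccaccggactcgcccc

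The windows of all 6 members held more CpG dinucleotides than the median window. TATAAA was absent from 5 of 6, which does not set them apart, since only 13.6% of all windows held it. The Taf4a window held 45 CpG dinucleotides, that of Tbpl1 24, the upstream Gtf2a1 window 22, that of Gtf2a1l 18 and those of Tbp and Taf7l 17 each, against a median of 7 (quartiles 3 and 20) over 32841 windows of 300 bases. The downstream Gtf2a1 window held 13. GC content ran from 47% in Taf7l to 77.3% in Taf4a, against a median of 52.7%. TATAAA was found in 1 of 6 members, Taf7l, against 13.6% of all windows. It lay 148 to 143 bases before the start and overlapped a second match on the other strand. GGGCGG was found in 4 of 6 members, Tbp, Tbpl1, Gtf2a1l and Taf4a, against 35.7%, with 6 matches in Taf4a that partly overlap. CCGGAAG was found in 2, Gtf2a1 at 26 to 20 bases before its upstream start and Tbpl1 at 5 to 11 bases after its start, against 8.86%. CCAAT, in Taf4a alone, was in 37.4% of windows. AACNG, the core letters of MYB sites, was in all 6 members and in 80.3% of windows, so its presence sets no member apart. All motifs were searched on both strands and chosen after the sequences were seen, and a match is not a measured binding site. The 539-bp upstream start of Tbpl1 and the internal start of Taf4a lie outside these windows.

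Of 49 other genes of the machinery, in 6 lists, 49 were found. A code other than XX was held by 48 of them, against 62.3% of all RefSeq genes. The gene without one was Tbpl2, the TBP paralog of oocytes, whose 1 model of 7 exons and 1379 nt was coded XX. The code was other than XX for 12 of 12 TFIID subunits, 6 of 6 subunits of TFIIA, TFIIB, TFIIE and TFIIF, 10 of 10 of TFIIH, 12 of 12 of RNA polymerase II, 5 of 5 TAF-like subunits of SAGA, and 3 of 4 other members and regulators of the TBP family (Btaf1, Dr1 and Drap1). CUFF models were found for 19 of 49 (28.5% of all RefSeq genes), several starts for 16 (26.7%), several ends for 18 (23.0%) and a facing start within 500 bp for 12 (11.3%). These counts were not tested. The median spliced length was 1707 nt and the median exon number 8. RNA polymerase II subunits were the shortest list, with a median of 933 nt, and 2 of 12 had a CUFF model, compared with 6 of 12 TFIID subunits.

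More than 2 starts were found for 2 of these genes: Gtf2e2, which encodes the beta subunit of TFIIE, with 4 starts within 425 bp, and Taf9b, the X-linked paralog of Taf9, with 3 starts over 1316 bp and 2 ends. A further 14 had 2 starts, and the 3 of them with the most models are given here. Taf8, a TFIID subunit, had 4 models with 2 starts and 4 ends spread over 10339 bp, Polr2d had 2 starts and 3 ends, and Taf9 had 2 starts and 2 ends. The small TFIIA subunit gene Gtf2a2, the partner of both Gtf2a1 and Gtf2a1l, had 1 start and 2 ends 202 bp apart.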

How the data were processed

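CAGE (1 library at 10.5 days post partum and 1 in adults) and PAS-Seq (1 adult library, 100-nt reads) were made from wild-type mouse testes, per the labels. TopHat2 2.0.4 and the mm9 genome build are named, per the submitters' processing notes. For assembly, coding and filtering of the models, no step is recorded: not given in the sources used here. The authors deposited 1 table of 12 columns with a transcript model per line, without read counts, so depth and replicate error are unknown.

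Models were matched by exact symbol, and positions are counted from 1. Starts or ends within 50 nt were joined by single linkage. A facing start lay 1 to 500 bp upstream on the other strand. All 22426 genes with a RefSeq-derived model served as background. With 1 library a group, and genes not being replicates, no test was run. All members were named, as were neighbours facing or overlapping them, and, of 49 other core factors, those not found or coded XX alone and 5 ranked by starts, with ties broken by number of models and then by name. Members and lists were chosen with earlier results of these data known. Counting was tested on simulated models. Python 3.11.15 and numpy 2.4.6 were used. Promoters came from RefSeq tables of GRCm38.p6, with Taf4a matched as Taf4. Coordinates were not converted between builds. Alternatives varied the tolerance, the distance, the kinds of model, the model standing for a gene and the pairs included.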

Additional observations from a re-analysis of the deposited data

How the results depend on the processing

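Of 46 alternatives, 34 stayed within 1.5 times the main value, 12 moved further and 0 reversed. Many of them vary counts of genes, which have no direction and could not reverse. A reversal was possible only for the class differences in exon number, spliced length and last exon. The loss of the difference in exon number without Taf7 and Taf7l was counted as moved. The number of members with a code other than XX stayed at 8, and that of other core factors at 48. With RefSeq-derived models only, members with more than 1 start fell from 4 to 1 and those with more than 1 end from 5 to 0. With positions required to be identical, for which no share of RefSeq genes is given, 6 members had more than 1 start. Gtf2a1l and Taf4b were then added, and the classes no longer differed in the number of genes with several starts. The median exon number, germline minus ubiquitous, was 5.5 with the longest model of any kind, 2.5 with the model of most exons or with RefSeq-derived models, and 0 to 11 when 1 pair was left out. It was 0 without Taf7 and Taf7l and 11 without Gtf2a1 and Gtf2a1l. The ratio of median last exons was 0.337, became 0.571 with the model of most exons or with RefSeq-derived models, and ran from 0.12 to 0.664 when 1 pair was left out (0.181 without Tbp and Tbpl1, 0.12 without Taf4a and Taf4b, 0.664 without Gtf2a1 and Gtf2a1l). The ratio of median spliced lengths was 0.526 and ran from 0.41 to 0.7. Members with a facing start went from 1 to 2 when the distance was 2000 bp, for which no share of RefSeq genes is given. For exon number, spliced length and last exon, the single-exon model stood for Tbp in the main value. It did not with the model of most exons or with RefSeq-derived models. No paired analysis was possible because each group has 1 library and the table gives no value per library. The lack of depth per model means that weakly supported models cannot be told from strong ones.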
